A study of Danio rerio with 16 samples.

Results

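The resting fast muscle of the non-exercised zebrafish is described here from 8 of the 16 arrays of the series, chosen by the label that puts a sample in the non-exercised group. Fast (white) muscle makes up the bulk of the zebrafish trunk and powers short bursts of swimming. Its fibres contract through fast isoforms of myosin, troponin and tropomyosin, take calcium out of the cytosol with the help of parvalbumins, and make ATP mainly by glycolysis and from phosphocreatine. It lies next to a thin layer of slow fibres, and a fillet also holds capillaries, blood, nerve endings, connective tissue and, at its surface, skin.

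The study compared adult zebrafish that were trained to swim with fish that were not, and the trained fish were not used here. The 8 fish were wild-type adults bought from a pet shop, and they rested in a swim tunnel at a water speed of 0.1 m/s for the 20 experimental days. All non-exercised fish of an experiment shared 1 tunnel, and the sex of the fish is not given in the sources used here. Total RNA came from fillets of dorsal epaxial fast muscle kept in RNAlater, a solution that preserves RNA, and each fish had an array of its own on a custom Agilent zebrafish design. The fish are called by their replicate number in the labels, and fish 1 to 4 lay on one slide and fish 5 to 8 on another.

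The arrays held 43803 non-control probes, of which 9104 carried a RefSeq symbol for 5952 genes, and the probe of a gene with the highest mean stood for it. A level is the log2 processed signal of a spot less that array's 75th percentile (control spots excluded), so that a level of 0 is the signal at that percentile and a step of 1 is a doubling. The levels rank spots and not amounts of RNA, since a probe's brightness also depends on its sequence. Spots with an outlier flag (49 to 341 per array) were left out, and no spot was saturated. The share of probes well above background, a flag the scanner software sets when a signal exceeds the background by a margin scaled to its spread, ran from 33.7% in fish 5 to 48.5% in fish 6, with a median of 41.7%. The 75th percentile itself was a signal of 1372 in fish 6 and 1161 in fish 7, against 401 to 597 in the other 6 fish, and in all 24 of the 50 brightest genes that were measured in both, fish 6 and 7 lay below every other fish. These fish are named beside the levels where they stand apart, and whether the percentile or the muscle set them lower was not tested.

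Dim spots read high along a band of rows on every array. Where the median of the dim probes in a block of 10 rows exceeded the fish's own median over blocks by more than 0.5, the block was taken as part of a band. On slide 1 the bands lay between rows 40 and 109 of 532 and reached an excess of 3.00 in fish 1, 3.09 in fish 2, 2.4 in fish 3 and 1.96 in fish 4. On slide 2 they lay between rows 390 and 439, with an excess of up to 1.09 in fish 5, 1.99 in fish 6, 1.71 in fish 7 and 2.04 in fish 8. Fish 3 also had a raised block from row 530 (0.52) and fish 6 at rows 0 to 9 (0.78). In all, 10807 probes (24.7%) lay in a band of at least 1 fish, and where the probe of a gene with a level below did so, the fish concerned are named beside it. The differences between the slides followed the bands. Limma's moderated test of slide 2 against slide 1 called 142 of 43779 probes higher (0.324%) and 625 lower (1.43%) at an adjusted p under 0.05, and of these 123 and 615 lay in a band of the slide on which they were higher. The median difference over all probes was -0.26, and other scalings, which moved it to between -0.08 and 0.01, shared the calls out differently, with 304 higher and 585 lower after centring on the median, 568 and 1286 after quantile normalisation and 664 and 1011 after cyclic loess. Without fish 6 and 7 there were 458 higher and 314 lower calls. Without the probes in a band, 1 of 32975 was called, and a separate fit of the 12537 probes that passed this flag on all 8 arrays called none, with 972 at an unadjusted p under 0.05. In the fit of all probes, 2 of the 767 calls were such probes.

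**Figure D1:**
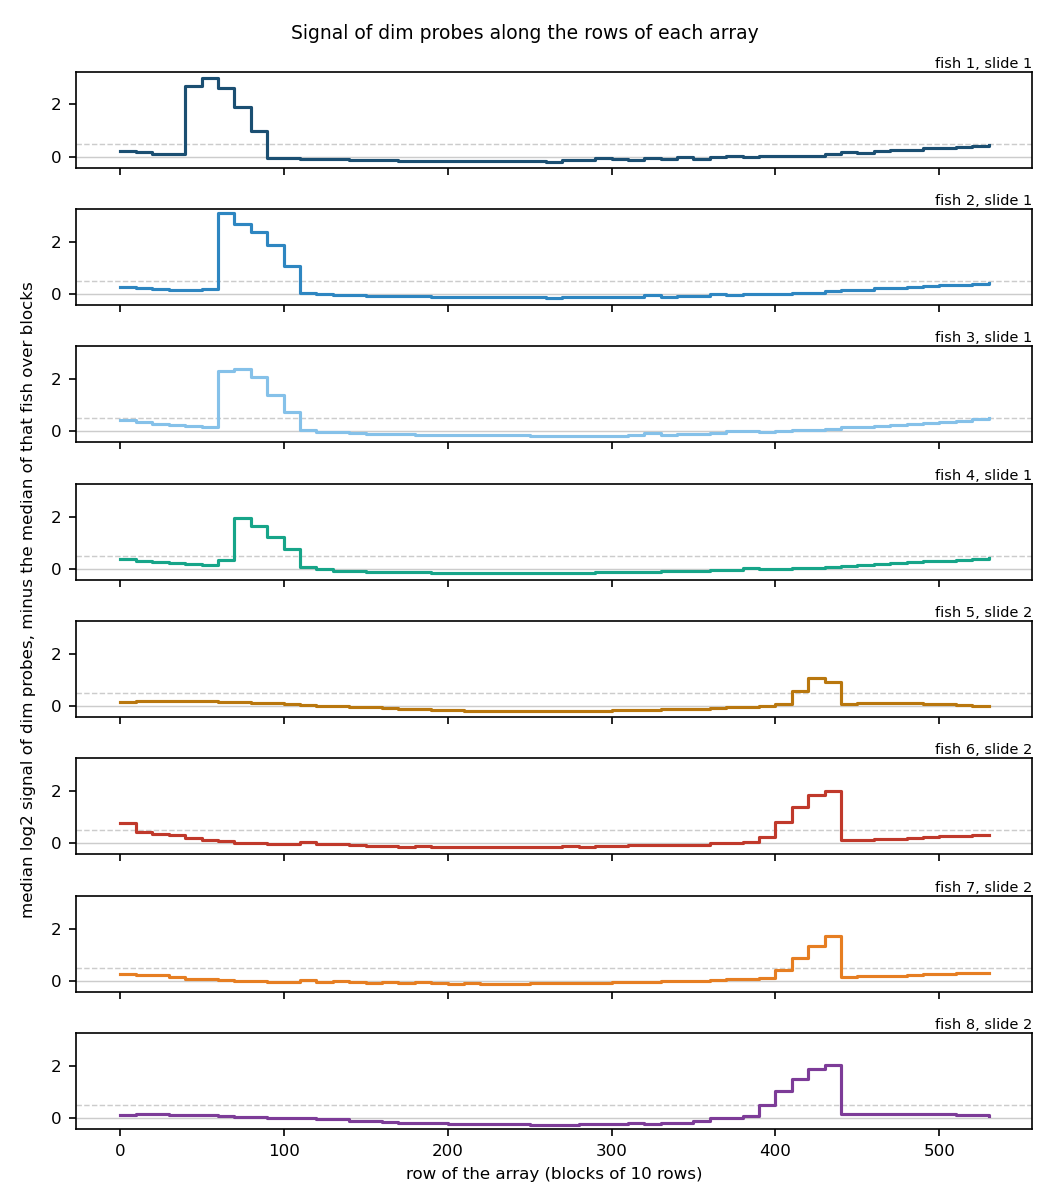
Median level of the dim probes in blocks of 10 rows along each array (x axis, row number), minus the median of that fish over blocks (y axis, log2); the dashed line marks the threshold of 0.5. The 4 arrays of slide 1 show a band near the first rows with an excess of up to 3.09, and the 4 arrays of slide 2 show one ending at row 439 with an excess of up to 2.04.

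A gene is said to be on an array where its spot stood well above background. Of the 5952 genes, 2820 (47.4%) were on all 8 arrays, 1304 (21.9%) on none with any of their probes, and the other 1828 on some. The lists of genes used below were written with earlier results of these data known, and they are described by their counts beside these shares. Of the 4843 genes with a probe outside the bands, 2255 (46.6%) were on all 8 arrays and 1228 (25.4%) on none. The share on none was thus higher away from the bands, and the list counts include genes with probes in a band. The outlier flag fell on the brightest spots, since 29.8% of the spots of the 50 brightest genes carried it against 0.629% of all spots with a symbol. For lists of bright genes the count with those spots kept is given too, under which 2956 genes (49.7%) were on all 8 arrays and 1300 (21.8%) on none.

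Genes of contraction, of energy metabolism and of protein synthesis filled the top of the ranking. The 20 brightest genes were ak1, nme2b.2, tnnt3b, rps2, rps25, rpl7a, tpt1, actc1b, pvalb3, rpl24, rpl26, rps3a, pvalb4, myl13, rps27a, rplp0, eno3, mylpfa, rpl23a and rpl29. Their mean levels ran from 10.10 down to 8.85, with probes in a band for tpt1 and rpl26 (fish 5 to 8), pvalb4 and rplp0 (fish 1) and rpl23a (fish 6). Among them are 10 genes of ribosomal proteins, 4 of sarcomere proteins and 2 parvalbumins, together with ak1 (adenylate kinase, which regenerates ATP from ADP), nme2b.2 (a nucleoside diphosphate kinase), eno3 (muscle enolase) and tpt1 (a translationally controlled tumor protein). All spots of the 50 brightest genes were read from the low-gain scan, against 4.77% of the spots of all named genes, and 43 of the 50 lacked the spot of at least 1 fish because of an outlier flag. The order within the top 20 is therefore not settled, and ak1 rests on fish 1, 2 and 4 alone.

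**Figure D2:**
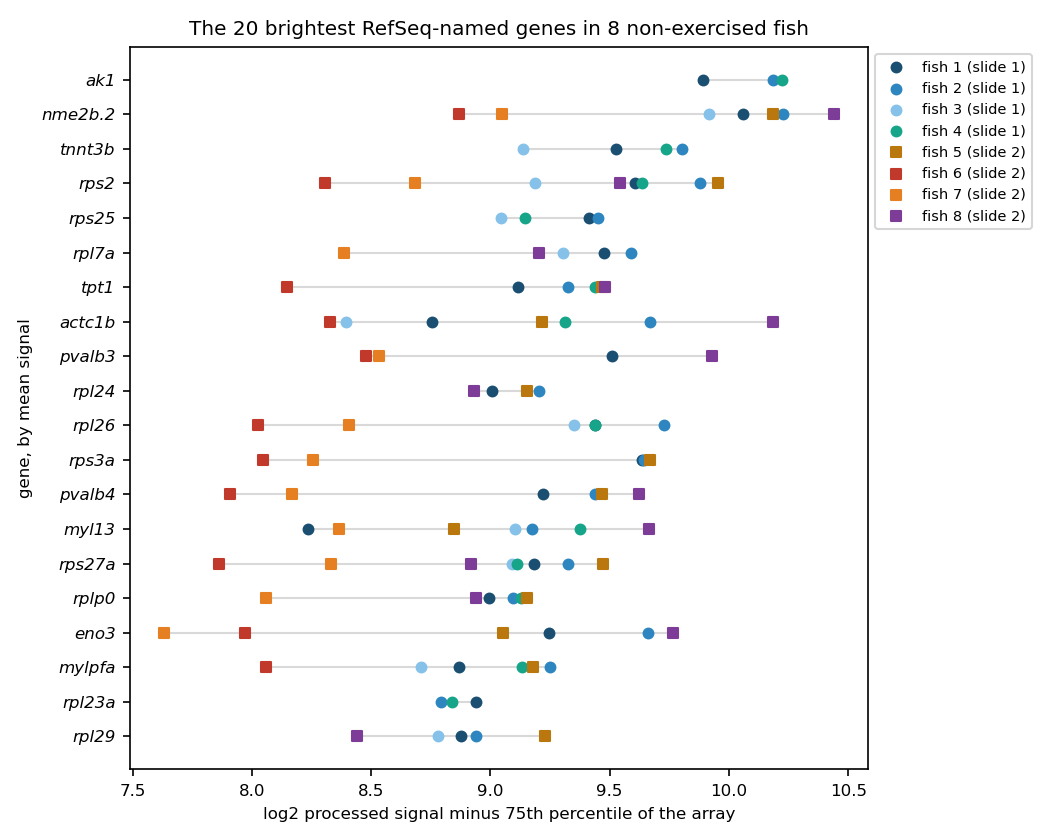
Levels (x axis, log2 processed signal minus the 75th percentile of the array) of the 20 brightest genes in each fish, with circles for slide 1 and squares for slide 2; a missing point is a spot left out for its outlier flag. Means run from 8.85 to 10.10, and fish 6 and 7 lie lowest for genes measured in both, such as rps2 at 8.31 and 8.68 against 9.19 to 9.95 in the others.

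The ribosomal proteins, the protein part of the ribosome, took 28 of the 50 places, and 61 of 63 of the design were on all 8 arrays with outlier spots kept (15 with them left out). The small-subunit gene rps2 was measured in every fish and read 9.61, 9.88, 9.19, 9.63, 9.95, 8.31, 8.68 and 9.54 in fish 1 to 8, so that only fish 6 and 7 fell under 9, and its SD of 0.58 became 0.27 without them. The gene rps15, the reference gene of the study's quantitative PCR, had a level of 8.49 ± 0.47 (SD, n = 8), and of 8.74 ± 0.12 without fish 6 and 7. Its values of 7.66 and 7.83 in fish 6 and 7 lay below the 8.58 to 8.90 of the other fish. In the 15 ribosomal genes measured on all arrays, fish 6 was the lowest in 15 and fish 5 the highest in 13, where over all 2820 genes fish 6 was the lowest in 36.4% and fish 5 the highest in 17.2%. The single gene of the list on no array was rps24. Genes of this family have near-identical copies, and which copy a probe reads cannot be told from the files.

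The translation factors, which bring tRNAs and mRNAs to the ribosome, were on all 8 arrays in 38 of 42 with outlier spots kept. This list was drawn by name and also holds eef1akmt1, a methyltransferase gene. The elongation factor eef1a1l1 led them at 8.18 ± 0.36 (SD, 6 fish), followed by eef1b2 at 7.97 (band of fish 8) and eef1g at 7.85 (band of fish 1 to 4). Its close relative eef1a1a was on no array, and neither was eef2a.1. Among the factors measured on all 8 arrays the most variable was eif4a2, an RNA helicase of initiation, which ran from 1.04 in fish 7 to 4.47 in fish 1 with a median of 2.19. The cap-binding factor eif4e1b, on 2 arrays, had a larger SD of 2.01, with 1.27 in fish 6 and -2.04 in fish 1.

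Genes of the sarcomere checked the label of the tissue. Of 33 fast and shared sarcomere genes on the array, 29 were on all 8 arrays with outlier spots kept (14 with them left out) and 1 on none. The fast troponin T gene tnnt3b, part of the calcium switch of the thin filament, read 9.53, 9.80, 9.14 and 9.73 in fish 1 to 4, and its spots in fish 5 to 8 carried outlier flags. The fast light chain mylpfa had a mean of 8.87 ± 0.44 (SD, 6 fish). The light chain myl13, which was not in the list, had a mean of 8.97 ± 0.52 (SD, 7 fish). The fast troponin I gene tnni2a.3 stood at 8.36 (band of fish 6 and 8), the tropomyosin genes tpm2 and tpma at 8.30 and 7.98, and the alpha-actinins of the fast Z-disc, actn3a and actn3b, at 8.18 and 8.07. In tpm2, which was measured in every fish, the lowest level was 6.97 in fish 6, the median 8.34 and the highest 9.33 in fish 8.

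Members of the same family did not rank or vary alike. Among the actins actc1b was bright in all 7 fish with a spot, from 8.33 in fish 6 to 10.18 in fish 8, while acta1b read 4.35 in fish 1 and 7.16, 7.57, 7.73, 8.24 and 7.32 in fish 2, 3, 4, 5 and 8. Fish 1 was the single low fish for acta1b, and its actc1b level of 8.75 lay within the range of the others. The fast myosin heavy chain myhz2 read 2.95, 8.18, 2.5, 3.57, 6.52, 6.31 and 7.35 in fish 1, 2, 3, 4, 5, 7 and 8. Fish 1, 3 and 4 were low and the other 4 measured fish high, with an SD of 2.29 where the median gene had 0.54. The regulatory light chain mylpfb, a paralogue of the bright and steady mylpfa, read -4.23, 4.23, -3.90, -2.92, -0.25, 2.18, 1.37 and 1.93 in fish 1 to 8. Fish 1, 3 and 4 were again the low fish, and none of the 3 was well above background for mylpfb. Fast troponin C (tnnc2.1, the calcium sensor of the thin filament) read between 2.48 and 3.77 in 7 fish and -0.71 in fish 6. Of the fast troponin I genes tnni2b.2 had a mean of 7.71 (band of fish 1) and tnni2a.1 was on no array, and the fast troponin T tnnt3a stood at -0.73 ± 1.58 (SD) beside the 9.55 of tnnt3b. The probes of actins, myosins and troponins can read near-identical copies, so these levels belong to the probe more than to 1 gene.

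Genes typical of slow and cardiac muscle split. The slow and cardiac troponin C tnnc1b was bright in every fish, with 6.83, 7.90, 7.89, 8.29, 7.34, 6.79, 7.23 and 8.78 in fish 1 to 8, and the slow tropomyosin tpm3 had a mean of 6.77 ± 0.62 (SD, 7 fish). Fish 8 was the highest for both. The slow troponin I gene tnni1b read 3.59 in fish 8 and 0.22 to 1.18 in the other 7 (its probe lay in the band of fish 2, 3 and 4). By contrast, tpm4a of the slow and cardiac list was highest in fish 4 at 1.67 and read 0.57 in fish 8. The muscle LIM protein gene csrp3, counted with the fast and shared genes, was also highest in fish 8, at 1.38 against -3.80 to -0.92. Of the cardiac genes, myl7 (atrial and ventricular light chain), nppa (natriuretic peptide), myh6 (atrial myosin heavy chain) and tnnc1a were well above background on no array. In bulk tissue, fewer cells of a type and less RNA per cell cannot be told apart.

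Calcium-handling genes were led by the parvalbumins, the soluble calcium buffers of fast fibres. The brightest were pvalb3 (9.11), pvalb4 (8.97), pvalb1 (8.31) and pvalb7 (7.59), and the values of pvalb4 were 9.22, 9.44, 9.47, 7.91, 8.17 and 9.62 in fish 1, 2, 5, 6, 7 and 8, with the probe in the band of fish 1. The other parvalbumins were dim, since pvalb9, pvalb8 (band of fish 2, 3 and 4) and pvalb6 were well above background on 1 array each and pvalb5 on none. For pvalb9 that array was fish 6, at 2.66 against -3.97 to -1.47 in the other 7. One reticulum calcium pump gene, atp2a2a, stood at 7.16 ± 0.68 (SD, n = 8; band of fish 6 and 8). The fast-twitch pump gene atp2a1 was not among the 25 genes of the list. The calmodulin gene calm1a stood at 5.69, the calcium channel subunit cacna1sb at 2.90 and fast calsequestrin casq1a, the store protein of the reticulum, at 2.81 ± 0.91 (SD, n = 8). In casq1a fish 3 and 7 were lowest at 1.76 and 1.73 and fish 2 and 4 highest at 3.99 and 3.91. In all, 18 of 25 genes of the list were on all 8 arrays with outlier spots kept (72%, against 49.7% over all genes). On none were 2 (8%, against 21.8%).

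Enzymes of glycolysis, of glycogen and of high-energy phosphate were on all 8 arrays in 32 of 38 genes with outlier spots kept, and none of the 38 was missing from every array. After ak1 and eno3 came aldoab (muscle aldolase, 8.45), ckma (muscle creatine kinase, 8.29), pgam2 (phosphoglycerate mutase, 8.26) and tpi1b (7.81), the probes of ckma and pgam2 lying in the band of fish 2, 3 and 4. Muscle lactate dehydrogenase ldha read 6.16, 7.01, 4.96, 7.37, 6.56, 4.96, 5.07 and 7.39 in fish 1 to 8. Fish 3, 6 and 7 were the low fish here, as they were for tpi1b. Isoforms better known from other tissues did not share 1 order of fish. Brain-type creatine kinase ckbb read 5.03, 6.48 and 5.87 in fish 3, 6 and 7 and 3.06 to 3.63 in the other 5, gapdhs read 6.22, 6.14 and 6.35 against 4.67 to 5.56, and pgam1a read 3.06, 3.41 and 3.44 against 1.15 to 2.35. Heart-type lactate dehydrogenase ldhba, by contrast, read 3.44, 3.06 and 3.02 in fish 3, 6 and 7 and 3.08 to 4.26 in the others, pgam1b was lowest in fish 3 at 0.73 (band of fish 1), and the aldolase gene aldocb was as high in fish 5 (3.91) as in fish 3 (3.90). These genes were chosen after their values were seen. The glycerol-phosphate dehydrogenase gpd1c was highest in fish 7 at 3.72 and lowest in fish 1 at -0.88.

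Mitochondrial genes of the respiratory chain and ATP synthase were on all 8 arrays in 40 of 42 with outlier spots kept, and sdhda alone was on none. The brightest was the cytochrome oxidase subunit cox4i1 at 8.10 ± 0.67 (SD, n = 8; probe in the band of fish 1 to 4), followed by the ATP synthase subunits atp5f1c at 7.93 and atp5mc1 at 7.84. Fish 4 was the highest for 18 of the 26 genes measured on all arrays and fish 6 the lowest for 20, where over all genes these shares were 15.6% and 36.4%. The cytochrome oxidase subunit cox6b1 stood out, since fish 1 read 2.27 and fish 2 and 8 read 6.46 and 6.45, with 3.62 to 5.11 in the others (band of fish 1, 2 and 3).

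Regulators of muscle identity and growth were dim beside the structural genes. Of 35, 17 were on all 8 arrays (48.6%, against 47.4% over all genes) and 9 on none (25.7%, against 21.9%). The median level of the list was -0.46, near the -0.65 of all named genes. The myocyte enhancer factors led, with mef2aa at 5.49, mef2ca at 3.51 and mef2d at 3.5 (band of fish 1). The myogenic factor myod1, which commits cells to muscle, had a level of 1.16 ± 0.52 (SD, n = 8), and myog, which drives their differentiation, read -1.45 in fish 1 and -0.56 in fish 3 against 1.06 to 2.23 in the other 6 (band of fish 6). The satellite cell factors pax7a and pax3a were on no array, myf5 was well above background on 1 and myf6 on 5. Myostatin, which limits muscle growth, was present as mstnb at 0.59 ± 1.29 (SD, n = 8), with -1.11 and -0.93 in fish 6 and 7 and 2.26 in fish 4, while mstna was on no array. The growth factor igf1 and the receptor gene igf1ra were on no array, the paralogous receptor gene igf1rb was on 6 with a mean of -1.76, and igf2b ranged from -1.03 in fish 1 to 1.32 in fish 7.

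Genes of protein breakdown were detected widely. Of 15 ubiquitin ligase and atrophy genes 13 were on all 8 arrays (86.7%, against 47.4% over all genes). Among them were the muscle ring-finger ligases trim63a at 4.10 ± 0.70 and trim63b at 3.38 ± 0.91 (SD, n = 8). The other classical atrophy ligase, fbxo32, was well above background on 1 array, fish 8, at -1.99. Of 38 genes with a proteasome name, 33 were on all 8 arrays (86.8%, against 47.4% over all genes), led by psma1 at 6.45. The list was drawn by name and also holds psme3ip1 and psmc3ip, genes of interacting proteins and not of subunits. Fish 1 was the highest in 21 of those 33, against 17.1% over all genes, and in psma1 it read 7.34 with a median of 6.34 over the 8 fish. The autophagy gene map1lc3a read 0.64 in fish 6 and 2.89 to 3.66 in the others. The exception in the list was ctsba (cathepsin B, a lysosomal protease), which read 4.32, 4.12, -2.5, -3.52, 4.27, 5.44, 6.35 and 5.03 in fish 1 to 8. Fish 3 and 4 were not well above background, and the gap of 6.62 to the next fish, at least 5.82 when the lowest detectable signal of those arrays is put in, was the largest of all genes searched. Its relatives showed no such gap, with ctsla between 2.54 and 5.34 and ctsd between 3.70 and 5.84. The gene has a single probe, which lay outside the bands.

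Chaperones were on all 8 arrays in 41 of 48 genes with outlier spots kept. The cytosolic chaperone hsp90ab1 stood at 7.31 (band of fish 1 to 4), and the chaperonin subunits cct7 and cct5, which fold actin and tubulin, at 6.74 and 6.43. Fish 8 was the lowest of all fish in 19 of the 39 genes measured on all arrays, against 21.5% over all genes. The chaperone gene dnajb4 read -0.79 in fish 6 and 1.3 to 2.55 in the other 7.

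The circadian clock was marked by per1b, a light- and clock-driven repressor, at 8.38 ± 0.51 (SD, 5 fish; band of fish 5 to 8), far above the 3.08 of the next clock gene bhlhe40. Of the 25 clock genes 13 were on all 8 arrays (52%, against 47.4% over all genes). Among them were bmal1a at 1.49 (band of fish 1 to 4) and cry2 at 0.99. On no array were 7, namely the per1b relatives per2 and per3, and clocka, clockb, npas2, bmal2 and bhlhe41. The nuclear receptor nr1d1, a clock repressor, read 0.49, -0.51, -0.05, -1.26, -1.13, -4.69, -4.63 and -1.11 in fish 1 to 8, so that fish 6 and 7 lay apart by at least 1.45, while its relative nr1d2b read 1.42 and 2.11 in these 2 fish and 2.16 to 3.58 in the others. Immediate early and stress response genes, taken as 1 list, were detected more widely than the genes at large. The early response genes were not counted apart from the stress genes. Of 41, 28 were on all 8 arrays (68.3%, against 47.4% over all genes). Only egr1 and dusp4 were on none (4.88%, against 21.9%). The brightest with a spot in every fish were atf4a at 5.89 ± 0.31 and txnipa at 5.50 ± 0.60 (SD, n = 8). The gene nr4a1, an orphan receptor gene that responds fast to stimulation, read 3.48, 3.08 and 3.55 in fish 4, 5 and 8 and 0.72 to 1.81 in the other 5.

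Markers of other cells and tissues gave a second check of the fillets. The eye genes were almost silent, with 23 of 27 on no array and pde6ha the single one above background on more than 1 array (7, with its probe in the band of fish 1 to 4). Of 13 markers of exocrine pancreas and gut 8 were on no array and none on all 8, and 3 of the 5 with any detection, prss1, amy2a and ctrb.1, had probes in a band. Of 18 liver and plasma protein genes 11 were on no array, including apoa1a, ttr and f2, and the 2 on all 8 were rbp4 (6.38, band of fish 1) and apoeb (3.21), whose RNA other tissues also hold. Of the hox genes, which pattern the body axis, 8 of 30 were on no array (26.7%, against 21.9% over all genes). On all 8 were 4 (13.3%, against 47.4%), namely hoxc8a, hoxd9a, hoxb8a and hoxb6a, with hoxc8a at 1.98 (band of fish 2, 3 and 4).

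**Figure D3:**
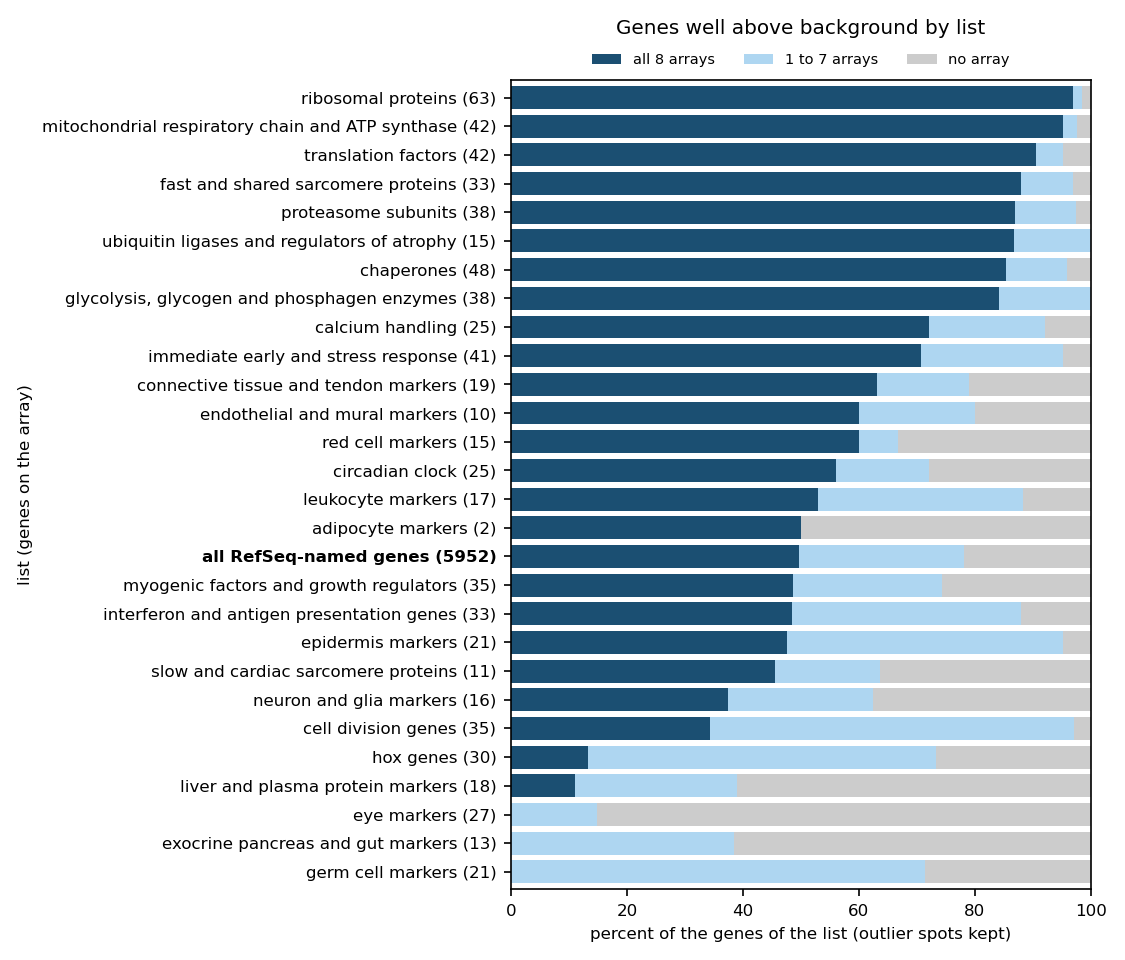
Share of the genes of each list (y axis, with the number of its genes on the array) that stood well above background on all 8 arrays, on 1 to 7, or on none (x axis, percent, outlier spots kept). The bold bar is all 5952 named genes, with 49.7% on all 8 and 21.8% on none; 61 of 63 ribosomal genes and 29 of 33 fast sarcomere genes were on all 8, and no eye, pancreas and gut, or germ cell marker was.

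Some genes of blood, vessels, nerve, skin and connective tissue were detected. On all 8 arrays were 6 of 10 endothelial and mural genes and 12 of 19 connective tissue genes. The counts were 6 of 16 for nerve and glia and 9 of 21 for epidermis, against 47.4% over all genes. On no array were 2, 4, 6 and 1 genes of these lists, in that order, against 21.9% over all genes. Adult beta-globin hbba1 had a level of 7.10 ± 0.93 (SD, 7 fish), with 8.34 in fish 5 and 5.81 and 5.92 in fish 6 and 7. Of the red cell list 7 of 15 were on all 8 arrays (46.7%, against 47.4% over all genes). On none were 5 (33.3%, against 21.9%), among them the erythroid factors gata1a and klf1. The summed level of the list, taken as the sum of the signals over the 75th percentile with outlier spots kept, ran from 74.7 in fish 7 to 367 in fish 5. This sum mostly follows hbba1, since the next brightest gene, hbba2, had a level of 3.78. The endothelial genes clec14a (2.31) and tek (1.34) were on all 8 arrays while cdh5 and flt4 were on none. The summed level of the list, which also holds genes of mural cells, ran from 11.2 in fish 6 to 57.7 in fish 4, and its brightest gene was the smooth muscle actin gene acta2, with 2.02 in fish 6 and 5.17 in fish 4. Of the nerve and glia genes mpz and pmp22a, proteins of the peripheral myelin sheath, were the brightest at 4.25 (band of fish 5 to 8) and 2.96, and the neuronal genes elavl3 and stmn2a were on no array. Among the epidermis genes the keratin gene krt8 was bright and even at 6.73 ± 0.24 (SD, n = 8; band of fish 1). The gene krt5 of the basal epidermis ran from 0.86 in fish 6 to 6.24 in fish 7. Of the claudin genes of that list, cldni was on all 8 arrays at a mean of -0.87, with 1.32 in fish 7. By contrast, cldne was on no array and cldna on 1, and spint1a was on 1 too. The adipocyte gene fabp4a read 6.39 in fish 4 and 3.70 to 4.41 in the other 7 (band of fish 1, 2 and 3). The only other adipocyte gene of the design, scd, was on no array.

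Connective tissue genes measured on all arrays were highest in fish 8. All 12 such genes of the list had their highest level in fish 8, where over all 2820 genes fish 8 was the highest in 9.7%. Of the genes on some arrays, fn1a was also highest in fish 8, at 0.24. By contrast, pdgfra was highest in fish 4 (-0.29, with -0.89 in fish 8) and prrx1a in fish 7 (-0.68, with -1.04 in fish 8). Type I collagen col1a1b read 3.88, 4.74, 3.82, 4.35, 4.39, 4.87, 4.38 and 6.59 in fish 1 to 8, and decorin, dcn, a proteoglycan of collagen fibrils, read 3.60, 4.54, 3.68, 4.14, 4.45, 4.51, 4.25 and 5.77. Fish 8 stood alone at the top for both, 1.72 and 1.24 above the next fish. The matrix protein gene sparc was highest in fish 8 at 4.88 with a median of 2.22, and thbs4b, a thrombospondin of tendon attachments, at 3.48 with a median of 1.40. The summed level of the list was 318 in fish 8 and 51.6 to 118 in the other 7. The summed level of the connective tissue list, tnni1b, csrp3 and tnnc1b were thus all highest in the same fish. So were the bright sarcomere genes actc1b at 10.18 and tpm2 at 9.33. Fish 8 was the highest in 5 of the 14 fast and shared sarcomere genes measured on all arrays. The part of tissue composition in the fish 8 levels was not tested.

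**Figure D4:**
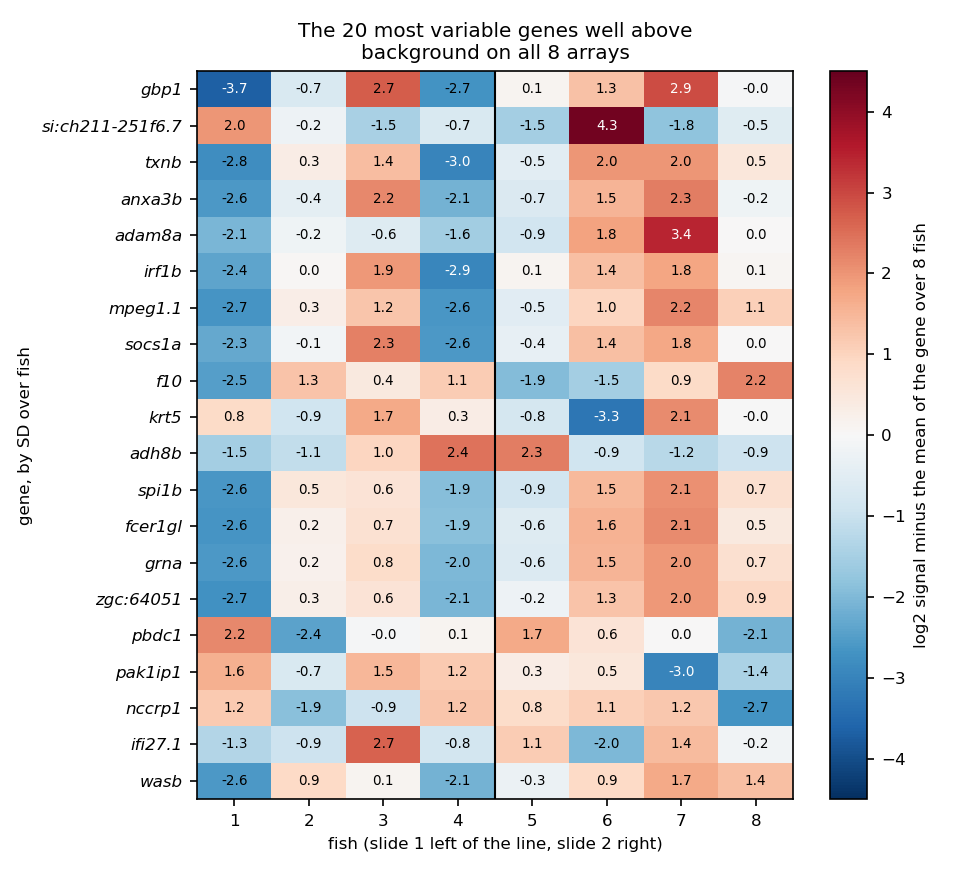
Level of the 20 most variable genes in each fish (columns, fish 1 to 8) minus the gene's mean over the 8 fish (colour and printed value, log2), in order of SD. In 12 of the 20 genes, gbp1, txnb, anxa3b, adam8a, irf1b, mpeg1.1, socs1a, spi1b, fcer1gl, grna, zgc:64051 and wasb, fish 1 and 4 are the 2 lowest fish, and gbp1 has the largest SD at 2.36.

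The SD over fish of the 2820 genes measured on all 8 arrays ran from 0.10 to 2.36 with a median of 0.54, and it exceeded 1 in 188 (6.67%). The median gene differed by 2.97-fold between its highest and lowest fish. The first 20 by SD were gbp1, si:ch211-251f6.7, txnb, anxa3b, adam8a, irf1b, mpeg1.1, socs1a, f10, krt5, adh8b, spi1b, fcer1gl, grna, zgc:64051, pbdc1, pak1ip1, nccrp1, ifi27.1 and wasb, and the SD of the last was 1.58 beside 1.57 for lygl1 (band of fish 5 to 8), the first gene outside. Only socs1a of the 20 had its probe in a band, that of fish 8. These genes were chosen by their SD, and their spread is therefore given as a description.

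Of the 20, 4 are in the list of interferon and antigen-presentation genes (gbp1, irf1b, socs1a and ifi27.1), 2 in that of leukocyte markers (mpeg1.1 and spi1b) and 1 in that of epidermis markers (krt5). Over all 2820 genes these lists hold 15, 7 and 9, in that order. The interferon list was written after gbp1 and irf1b were seen, so its count among the 20 is not a result. The interferon-induced GTPase gene gbp1 read -1.66, 1.3, 4.73, -0.70, 2.14, 3.31, 4.92 and 1.96 in fish 1 to 8, a 95.4-fold range. The macrophage perforin gene mpeg1.1 read -1.49, 1.45, 2.39, -1.47, 0.65, 2.13, 3.35 and 2.24, and spi1b, the myeloid transcription factor PU.1, read -0.37, 2.77, 2.89, 0.35, 1.40, 3.74, 4.33 and 3.00. Fish 1 and 4 were the lowest for all 3 and fish 7 the highest. The interferon regulatory factor irf1b ran from 0.71 in fish 4 to 5.60 in fish 3, the cytokine signalling inhibitor socs1a from -1.12 in fish 4 to 3.73 in fish 3, and the annexin gene anxa3b from 1.91 in fish 1 to 6.78 in fish 7. For irf1b, anxa3b and ifi27.1 a second probe well above background on all 8 arrays gave the same pattern, with Pearson correlations over the 8 fish of 0.998, 0.997 and 1.00. Over all 638 genes with such a second probe the median correlation was 0.956.

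Of the 17 leukocyte markers 7 were on all 8 arrays (41.2%, against 47.4% over all genes) and rag1 and il1b on none (11.8%, against 21.9%). The brightest were the antigen-presentation genes cd74a and cd74b (invariant chain) at 5.81 and 5.05. The actin-bundling gene lcp1 read 1.92, 4.32, 5.46, 2.4, 4.00, 4.89, 6.10 and 4.61 in fish 1 to 8 and coro1a, another actin regulator of leukocytes, 1.65, 4.27, 5.29, 1.99, 3.70, 4.50, 5.35 and 3.84. Fish 1 was the lowest for 6 of the 7 measured markers, where over all genes it was the lowest in 313 of 2820, and lysozyme, lyz, was the exception with its lowest level of 2.12 in fish 3 and its highest of 4.31 in fish 6. The summed level of the list was 33.6 in fish 1 and 55.7 in fish 4, and 149 to 373 in the other 6. The T cell kinase gene lck, on 5 arrays, was also lowest in fish 1 and 4, at -3.74 and -3.18, with up to 0.28 in fish 7. Those 2 levels lie below the lowest signal well above background on these arrays (-2.19 and -1.69). Not all of the list went this way. The gene mpx, on 1 array, was highest in fish 2 and 1 at -0.69 and -2.08 (band of fish 1), and lyz read 4.01 in fish 4.

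Interferon and antigen-presentation genes, a list written after the values of gbp1 and irf1b were seen, were on all 8 arrays in 15 of 33, with a median SD of 1.15. That share of 45.5% stands beside 47.4% over all genes. The list holds gbp1 and irf1b themselves. Fish 3 was the highest in 10 of the 15, against 12.3% over all genes, and fish 1 or 4 the lowest in 14, where over all 2820 genes fish 1 was the lowest in 313 and fish 4 in 200. The exception was ifi27.1, lowest in fish 6 at 1.83. Among those 15 are the proteasome activator genes psme1 and psme2 and the inducible subunit gene psmb10, whose 2 lowest levels were in fish 1 and 4. Of these, psmb10 read 0.25 and 0.92 in fish 1 and 4 and 2.21 to 4.43 in the others. The interferon response genes stat1b and irf7 were higher in fish 3 and 7 than in the rest, with stat1b at 0.06 and -0.20 against -3.91 to -2.33, and irf7 at 1.36 and 0.07 against -2.15 to -0.48. Pearson correlations with gbp1 were highest for arpc4 (0.982; band of fish 5 to 8), anxa3b (0.980), casp8 (0.980; band of fish 6 and 8), lcp1 (0.973) and ehd1b (0.972), and 76 of the 2819 other genes had a correlation over 0.9. With txnb, a thioredoxin, they were highest for cyba (0.985), grna, rac2, aif1l and lgals1l1, and 84 genes passed 0.9. These correlations run over 8 arrays that share their bands and the pattern of fish 1 and 4, and they are descriptions.

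The remaining genes of the 20 followed other fish or rested on few of them. The coagulation factor gene f10 read -0.97, 2.81, 1.97, 2.67, -0.41, -0.01, 2.39 and 3.76 in fish 1 to 8, with fish 1, 5 and 6 low. The alcohol dehydrogenase gene adh8b read 5.33 and 5.21 in fish 4 and 5, 3.88 in fish 3 and 1.36 to 2.00 in the other 5, and a second probe gave the same order with a correlation of 0.990. The metalloprotease gene adam8a was highest in fish 7 and 6, at 3.43 and 1.81, and its SD of 1.81 became 0.81 without those fish. That of krt5 went from 1.70 to 1.00, and a second krt5 probe was also lowest in fish 6 (correlation 0.971). That probe was well above background on 4 arrays only. Its -4.99 in fish 6 lay at the negative controls of that array (-4.93), so it cannot check the level there. The ribosome assembly gene pak1ip1 was lowest in fish 7, at -1.18. For nccrp1, a receptor gene of cytotoxic cells, fish 2, 3 and 8 read 0.67, 1.59 and -0.17 and the other 5 read 3.34 to 3.78.

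The steadiest of the 500 brightest genes measured on all arrays were ctnnb2, ap1g1, srsf5a, azin1b, paip2b, zgc:92744, ube2ib, anxa1a, rab11ba (band of fish 1) and tardbpb. The beta-catenin gene ctnnb2, of cell adhesion and Wnt signalling, read 3.53, 3.42, 3.45, 3.39, 3.41, 3.41, 3.15 and 3.41 in fish 1 to 8, an SD of 0.11, and only fish 7 stood off. The SDs of the 10 ran up to 0.23, and the means from 3.15 to 4.14. No gene of the sarcomere or of glycolysis was among these 10, but their share of the 500 was not counted, so the absence is not a result.

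Genes with a gap between fish were searched separately, because a mean and an SD hide a gene that is present in some fish and not in others. Among 4064 genes well above background on at least 2 arrays, 88 had a gap of at least 2 between neighbouring fish with at least 2 fish on each side. In 42 of the 88 the fish above the gap were fish 1 and 6, in 11 they were all but fish 1 and 4, in 6 fish 1 and 2, and in 4 fish 5 and 6. Probes in a band accounted for 18 of the 88, among them 5 of the 6 with fish 1 and 2 above (foxp1b, camk1ga, neurod2, arhgap5 and krcp, all in rows 56 to 63) and 6 of the 42 with fish 1 and 6 above. The 10 largest gaps all lay outside the bands.

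Of the 42 genes with fish 1 and 6 above the gap, 7 are in the germ cell list (zp2.1, zp2.3, zp3, zp3b, zar1, dazl and ca15b) and 4 in the cell division list (ccnb2, ccna1, ccne1 and gmnn). Among all 5952 named genes these lists hold 21 and 35. The search covered only the 4064 genes on at least 2 arrays. The genes zar1, dazl, ca15b, ccna1, ccne1 and gmnn were on 2 arrays, those of fish 1 and 6, and so entered the search through these fish. The cell division list was also written after the values were seen. Neither count is therefore a result. After ctsba, the largest gaps were those of kpna7 (an importin gene of oocytes in mammals), si:dkey-229d11.5, cldng, zp2.1, srp68, zpcx, zgc:56231, cldnd and ca15b, and for each of these 9 fish 1 and 6 were above. The egg coat gene zp2.1, of the zona pellucida family, read 3.77 in fish 1 and 6.46 in fish 6 and -4.20 to -1.52 in the other 6, a gap of at least 5.07. The claudin genes cldng and cldnd, of tight junctions, read 2.66 and 3.75 in fish 1 and 5.05 and 6.28 in fish 6, and no other fish passed -1.31 for either. The gap of kpna7 was at least 3.63 and that of ca15b, a germ line carbonic anhydrase gene, at least 2.89. The probe of hnrnpk, an RNA-binding protein gene, read 5.41 and 7.50 in fish 1 and 6 and at most 0.61 in the others, and a second hnrnpk probe read 1.47 and 4.70 in fish 1 and 6 and was not above -3.55 in the rest. For srp68, of the signal recognition particle, the second probe was well above background on no array, so that the gap rests on 1 probe.

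Of the 21 germ cell markers none was on all 8 arrays (against 47.4% over all genes) and 6 were on none (28.6%, against 21.9%). The 15 on some had their highest level in fish 6 or 1 (zp2.5 and h1m, without a spot in fish 6, in fish 1). All 21 probes lay outside the bands. The egg coat gene zp2.3 read 4.82, 0.00, -2.88, -2.65, -3.42, 7.50, -0.62 and 0.03 in fish 1 to 8, and a second probe of it read 5.02 and 7.63 in fish 1 and 6 with a correlation of 0.999. The egg coat gene zp3b read 4.53, -0.70, 0.49, -2.27, -1.88, 6.23, -1.70 and -0.78, again with its second probe alike (0.988). Fish 6 was above fish 1 in both, and the other 6 fish did not pass 0.03 for zp2.3 or 0.49 for zp3b. The oocyte gene zar1 read 1.92 and 4.49 in fish 1 and 6 and at most -1.93 in the others, and dazl, an RNA-binding protein gene of germ cells, 0.04 and 2.65, although a second dazl probe was well above background on no array.

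In fish 6 alone nanos3 (0.80), dnd1 (0.77), piwil1 (-0.46), ddx4 (-1.17), spo11 (-1.68) and figla (-2.15) were well above background. All but figla are genes of germ cell survival, of piRNA defence and of meiosis. The lowest signal well above background was -2.86 in fish 6, -1.64 in fish 2 and -1.31 in fish 5. The spo11 and figla levels lie below those of fish 2 and 5, so signals like these may go unflagged there. The somatic gonad genes cyp19a1a (aromatase) and amh, the testis factor dmrt1 and the sperm genes tekt1, cimap1b and spata4 were on no array. The egg yolk gene vtg2, made by the liver, was well above background in fish 1 and 8, at -1.09 and -0.65, and read -4.63 in fish 6. The summed level of the germ cell list was 547 in fish 6 and 113 in fish 1, and 2.18 to 4.13 in the other 6. The part of germ cell RNA in the levels of other genes of fish 1 and 6 was not tested.

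**Figure D5:**
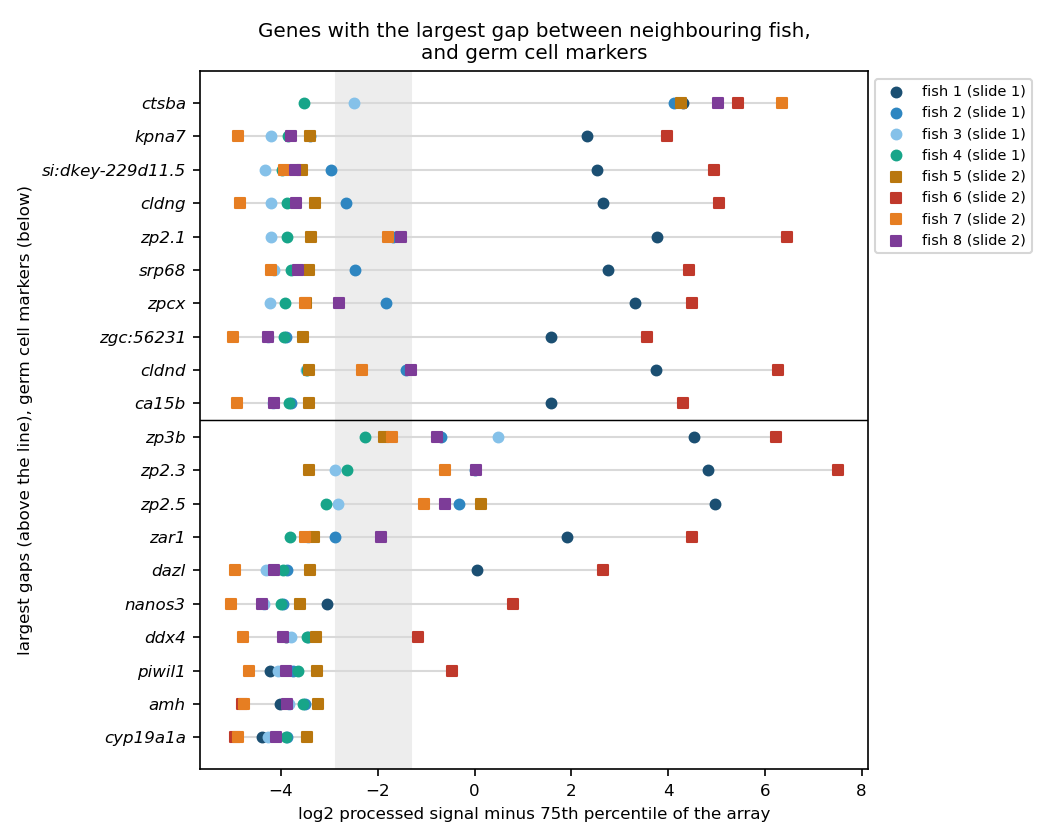
Levels (x axis, log2 processed signal minus the 75th percentile of the array) in each fish for the 10 genes with the largest gap between neighbouring fish (above the line) and for 10 germ cell markers (below it); the grey strip spans the lowest signals well above background on the 8 arrays, from -2.86 to -1.31. In 9 of the 10 genes above the line fish 1 and 6 stand apart, as in zp2.1 at 3.77 and 6.46, and in ctsba fish 3 and 4 are the low fish at -2.5 and -3.52.

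Cell division genes were also highest in fish 6. Of 35, a list written after the values were seen, 12 were on all 8 arrays (34.3%, against 47.4% over all genes) and ccne2 on none. Fish 6 was the highest in 10 of those 12, against 10.6% over all genes. The mitotic kinase gene plk1 read 0.37, -0.52, 1.07, -1.38, -0.47, 3.48, 1.43 and -0.54 in fish 1 to 8, and the importin gene kpna2 2.21, 2.15, 3.80, 0.81, 2.71, 5.21, 4.34 and 2.18. Fish 6 led both, fish 7 came next and fish 4 was last. The cyclin genes ccnb1 and ccnb2 reached 5.24 and 4.42 in fish 6 and 2.09 and 1.92 in fish 1, with both probes in the band of fish 1 and that of ccnb2 also in those of fish 2 and 3. The second most variable gene of all, si:ch211-251f6.7, also had 6.85 in fish 6, 4.50 in fish 1 and 0.70 to 2.28 in the others, and its SD of 2.11 became 1.28 without fish 6. Its closest partners over the 8 fish were mos, an oocyte kinase (0.974; band of fish 2, 3 and 4), sgf29 (0.969), thap11 (0.963; band of fish 6 and 8), larp6a (0.921) and tram2 (0.920), and 9 genes passed 0.9.

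The remaining gaps named immune genes and genes with fish of their own. With all but fish 1 and 4 above were irf8 (a macrophage factor), irf1b, txnb, mpeg1.1, gbp1, casp23, dusp2, prkcbb, ikzf1, tescb and mxe, the last 2 with probes in a band. Genes with fish 5 and 6 above included psmb9a, psmb12 and tap2a. The immunoproteasome genes psmb9a and psmb12 read 1.02 and 2.95 in fish 5 and 3.22 and 4.31 in fish 6, with gaps of at least 2.66 and 3.17 to the other fish, and the peptide transporter gene tap2a read 0.10 and 1.45 with a gap of at least 1.74. In psmb8a fish 1 joined them, at -0.39 beside 2.67 and 2.61, and the class I gene mhc1uba read 5.09 in fish 6 and at most -1.3 in the others (band of fish 1, 2 and 3). In the RefSeq annotation of the GRCz12tu assembly psmb9a, psmb12, psmb8a, tap2a and mhc1uba lie within 5 places of each other in gene order. The class II genes mhc2dga and mhc2dgb, which are neighbours there, were both above the gap in fish 2, 4 and 5, with mhc2dga at 3.83, 1.34 and 2.33 and at most -2.21 elsewhere. The antioxidant gene gpx1b read 3.20, 2.15 and 3.33 in fish 3, 4 and 5 and -2.77 to 0.03 in the others, with a second probe alike (0.987; band of fish 8), and the fatty acid-binding gene fabp7b read 3.31, 3.28 and 3.82 in fish 3, 6 and 7 and at most -0.53 elsewhere (band of fish 5 to 8).

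Of the named genes with the largest slide difference, mpc1, a subunit of the mitochondrial pyruvate carrier, read 0.78 to 3.75 in fish 1 to 4 and -4.94 to -1.59 in fish 5 to 8, a slide difference of -4.94 ± 0.79 (SE, adjusted p = 0.012, limma). Its probe lay in the band of all 4 fish of slide 1. The transcription factor genes stat5b and hoxa9a, the Wnt antagonist nkd1 and the early embryonic gene dharma differed by between -3.17 and -3.11, each with a probe in a band of slide 1 that was well above background on 4 arrays. In the opposite direction grna.2, a granulin gene outside the bands, was higher on slide 2 by 6.26 ± 1.21 (adjusted p = 0.0253, limma), with -4.16, -0.95 and -3.06 in fish 1, 2 and 4 and 0.86, 5.33, 6.12 and 1.84 in fish 5 to 8. The groups do not overlap for this gene, and fish 6 and 7 carry the highest values. The signalling gene stat4, the cilium gene tmem231, the peptidase gene xpnpep2 and rgs14a, which regulates G protein signalling, were higher on slide 2 by 2.33 to 2.58, and all but the probe of xpnpep2 lay in the band of fish 5 to 8.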

How the data were processed

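The values are the processed signal intensity that Agilent Feature Extraction 10.7.3.1 wrote per spot, as the authors deposited it in the scanner files, with local background subtracted, bright spots taken from a low-gain scan and 1 dye (Cy3). The arrays of exercised fish and the deposited table of the authors' own comparison were not used. Each array's log2 intensity was shifted by its 75th percentile over non-control probes, spots flagged as outliers were dropped and spots of a probe were averaged. Of 43803 probes, 9104 matched a symbol in RefSeq's GRCz12tu annotation. A gene was represented by its brightest probe, and it counted as on no array where none of its probes was well above background on any.

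Groups came from the labels, with 1 array per fish. The slides were compared with limma 3.58.1 in R 4.3.3 (lmFit and eBayes, Benjamini-Hochberg adjustment over all probes), and p-values measure the spread between fish. In a test on simulated data of 43803 probes, 85 of 100 probes shifted by 4 were called, 30 of 100 shifted by 2 and 1 of 43603 unshifted ones. Its noise was drawn independently for each probe and held no bands. The test therefore cannot show how the fit behaves where bands run along the rows. Counts and lists were made with pandas 2.3.3 and numpy 2.4.6 in Python 3.11.15, and figures with matplotlib 3.10.9. A gap counted from 2 on the log2 scale, and its bound takes the lowest signal well above background on the array in place of a dimmer value.

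The genes named were the 20 brightest, the 20 most variable, the 10 steadiest of the 500 brightest, the 10 with the largest gap, the brightest and most variable of each list with paralogues, the 5 probes most changed each way between slides, the 5 closest partners of the 3 most variable genes, rps15, and the members behind counts of 5 or fewer. Others, such as nr4a1, gapdhs, lck, stat1b, psmb10, nr1d1, gpx1b and fabp7b, were chosen after their values were seen. The members, lists and rules were chosen with earlier results of these data known. The interferon and cell division lists, the rule for bands, and leaving out fish 6 and 7 were added after values were seen. Other background corrections, normalisations, filters, probe choices and each fish left out were tried as alternatives. Arrays have no counting depth, and their number, 8, limits the precision. One gene is not reported here.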

Additional observations from a re-analysis of the deposited data

Results flagged for a closer look

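In 15 of 117 named genes measured in all 8 fish, 1 fish lay far from the others by Dixon's test at the 95% level. Chance does this in about 1 in 20 genes, but many of the named genes were chosen for their spread or after their values were seen, so the count is not to be set against that share. The fish apart was fish 6 in 8 genes, fish 8 in 5, and fish 4 and fish 7 in 1 each, and the genes share these arrays. Fish 6 was low for tnnc2.1 (-0.71), map1lc3a (0.64), clec14a (0.64), dnajb4 (-0.79) and hoxc8a (0.62), and high for the genes that varied like si:ch211-251f6.7, namely sgf29 (0.68), larp6a (4.47) and tram2 (1.93). Fish 8 was high for the collagen gene col1a1b (6.59), dcn (5.77), the slow troponin gene tnni1b (3.59) and anxa1a (4.02), and low for ube2ib (2.96). Fish 4 was high for fabp4a (6.39), and fish 7 low for ctnnb2 (3.15). The probes of tnni1b, fabp4a and hoxc8a lay in a band, but not in one of the fish apart.

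A signal was also present outside the named genes. Of the 34699 probes without a RefSeq symbol, 8669 (25.0%) stood well above background on all 8 arrays, and no further value of theirs was used.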

How the results depend on the processing

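The count of genes on all 8 arrays stayed within 1.5 times of 2820 under every alternative run. Leaving out 1 fish at a time gave 2829 to 2970 genes on all remaining arrays, 1307 to 1519 on none, 47 to 50 of the 50 brightest in common and 36 to 46 of the 50 most variable. The count on no array fell to 584 when a looser flag, signal positive and significant, replaced the one for well above background. Of the 50 most variable genes 24 were in common when ranked by the median absolute deviation and 30 without fish 6 and 7. The probes called between slides were the least stable result. They numbered 2970 with normexp background correction, 3872 with no correction, 1854 with quantile normalisation, 1675 with cyclic loess, 84 in a fit of probes that stood well above background on 4 arrays or more, 0 in a fit of those on all 8 (972 at an unadjusted p under 0.05), and 1 without probes in the bands. Leaving out 1 fish gave 262 to 1035, with 262, 410, 441 and 493 without fish 2, 3, 7 and 8. The SD of named genes moved by more than the rule allowed in 50 of the leave-one-out values and stayed in 1518. Without fish 6 and 7 it moved in 64 and stayed in 132, with quantile normalisation in 52 and 144, and with normexp in 27 and 169. Leaving out fish 6 and 7 together and the probes in bands were added after seeing the data, and the cause of these changes was not tested. No paired analysis was possible because only the non-exercised fish were analysed, so no other group shared their replicate numbers. What the arrays can show is limited below a level of about -2.86 to -1.31, the lowest signal well above background on each.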
